A study of Mus musculus with 4 samples.

Results

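Start sites of long noncoding RNA (lncRNA) genes were examined in lists of transcription initiation regions from mouse embryonic liver and yolk sac. Members were defined by annotated position alone, under a rule chosen with earlier results of these data known. They are the windows of 500 bp either side of the transcript starts of GENCODE M21 (GRCm38) genes of type lincRNA, antisense, processed transcript, sense intronic, sense overlapping, bidirectional promoter lncRNA or macro lncRNA. A window was kept when no protein-coding transcript start lay within 1 kb of the lncRNA start. Of 14952 distinct lncRNA starts, 12198 were kept, and 2754 were left out. The kept windows belong to 8592 of 10152 lncRNA genes, among 132721 start windows of 55413 annotated genes in all. By type, 5529 genes were lincRNA, 2137 antisense, 568 processed transcript, 311 sense intronic, 28 sense overlapping, 17 bidirectional promoter and 2 macro lncRNA.

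The 4 libraries were made by PRO-seq, a nuclear run-on assay that maps RNA polymerases engaged in transcription: 2 from liver and 2 from yolk sac, all from E14.5 embryos. Mothers were C57BL/6J. Fathers were of mixed C57BL/6J and CAST/EiJ background and were CAST/EiJ at a locus of chromosome 12, Dlk1/Gtl2, so that both tissues share this cross. Tissue of 6 embryos was pooled for each library, and the run-on was made on isolated chromatin. The labels do not say whether the pools of a tissue are separate sets of embryos, so p-values measure only the spread between these libraries. Each library is deposited as a list of dREG peaks. dREG is a classifier that marks regions of transcription initiation, at promoters and enhancers, from run-on reads. A gene was called in a library when a peak overlapped at least 1 of its kept windows by at least 1 bp.

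Long noncoding RNAs are transcripts without a long open reading frame, made by RNA polymerase II. Some act in the nucleus on chromatin or on neighbouring genes, as Xist and Kcnq1ot1 do, some host small RNAs in their introns, and for many the act of transcription rather than the RNA is thought to matter. Embryonic liver at this stage is the main site of red cell formation beside its hepatocytes. The visceral yolk sac is a nutritive membrane of endoderm, mesoderm and blood vessels.

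The lists held between 24333 and 50525 peaks, and yolk sac lists were the longer. Read depth is unknown, and a longer list can come from deeper sequencing or from more active sites, which cannot be told apart here. Tissue labels were checked at coding promoters. Of 9 erythroid markers, liver lists held peaks at 8 and 8, yolk sac lists at 3 and 3. Of 10 hepatocyte markers the counts were 8 and 7 against 7 and 7. Of 8 visceral endoderm markers they were 6 and 4 against 8 and 8, and of 7 mesenchymal markers 5 and 6 against 7 and 7. Endothelial markers had peaks at 4 of 4 genes in every list. Of 5 trophoblast markers only Ascl2 had a peak, in every list, and Prl3d1, Tpbpa, Gcm1 and Prl8a9 had none. The part of these differences in cell makeup in the results on lncRNA starts was not tested. In bulk tissue, fewer cells of a type and less nascent RNA per cell cannot be told apart.

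The sequences at the leading tissue-only starts are shown first, since these windows carry the difference between tissues. Each run is the 300 bases from 250 before to 50 after the RefSeq start of the gene (GRCm38.p6), 5′ to 3′ on the gene's strand. Starts in RefSeq lay within 50 bp of 2606 of the 12198 kept GENCODE starts. Shown are the 3 highest-ranked liver-only genes (called in both liver libraries and neither yolk sac library), the 3 highest-ranked yolk-sac-only genes (the reverse) and 1 tissue-only gene of the lists described further on, among genes with such a match whose 300 bases overlap a peak in each library that called the gene. Capitals mark every match, on either strand, to 7 motifs. AGATAA and TGATAA are motifs of GATA factors, and CCACACCC is the motif of a family of zinc finger factors. TATAAA is the core promoter element named after it, and GGGCGG is known as the motif of Sp1. The letters CCAAT name a promoter element bound by NF-Y, and TGACTCA is shared by AP-1 and NF-E2. Neighbouring matches can merge into a single run of capitals. A match is a description of letters and not of a bound site.
F930017D23Rik (chr10:43593177-43593476, plus strand, liver-only): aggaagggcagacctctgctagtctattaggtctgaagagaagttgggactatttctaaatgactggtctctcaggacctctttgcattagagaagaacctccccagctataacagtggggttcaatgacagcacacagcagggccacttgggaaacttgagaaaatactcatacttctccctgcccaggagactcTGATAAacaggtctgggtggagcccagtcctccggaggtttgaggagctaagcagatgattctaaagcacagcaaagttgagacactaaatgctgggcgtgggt
Asb17os (chr3:153852375-153852674, minus strand, liver-only): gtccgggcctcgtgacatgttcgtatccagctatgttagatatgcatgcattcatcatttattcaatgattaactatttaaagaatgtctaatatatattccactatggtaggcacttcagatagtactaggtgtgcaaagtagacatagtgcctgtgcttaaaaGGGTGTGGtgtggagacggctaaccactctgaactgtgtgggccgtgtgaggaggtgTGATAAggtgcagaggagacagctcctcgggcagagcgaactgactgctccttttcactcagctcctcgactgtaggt
Gm33619 (chr10:21186694-21186993, plus strand, liver-only): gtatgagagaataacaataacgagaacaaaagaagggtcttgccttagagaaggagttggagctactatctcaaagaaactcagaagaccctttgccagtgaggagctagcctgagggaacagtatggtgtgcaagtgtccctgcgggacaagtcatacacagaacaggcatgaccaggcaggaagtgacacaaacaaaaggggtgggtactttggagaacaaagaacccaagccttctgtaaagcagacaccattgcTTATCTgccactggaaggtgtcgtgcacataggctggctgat
4930527F14Rik (chr14:45543460-45543759, plus strand, yolk-sac-only): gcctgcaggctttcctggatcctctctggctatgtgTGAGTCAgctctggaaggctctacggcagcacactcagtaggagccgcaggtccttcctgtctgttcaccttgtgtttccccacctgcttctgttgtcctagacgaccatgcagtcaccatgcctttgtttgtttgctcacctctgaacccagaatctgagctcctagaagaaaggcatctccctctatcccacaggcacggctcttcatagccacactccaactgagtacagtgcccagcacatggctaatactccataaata
9530059O14Rik (chr9:122572251-122572550, plus strand, yolk-sac-only): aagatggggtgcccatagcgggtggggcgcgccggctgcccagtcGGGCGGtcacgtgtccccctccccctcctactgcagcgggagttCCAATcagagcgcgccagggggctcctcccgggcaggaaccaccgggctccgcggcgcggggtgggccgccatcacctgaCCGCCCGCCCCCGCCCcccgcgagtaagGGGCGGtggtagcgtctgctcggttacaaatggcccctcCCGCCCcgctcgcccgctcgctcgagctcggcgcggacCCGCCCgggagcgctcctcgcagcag
9530020I12Rik (chr12:11204453-11204752, minus strand, yolk-sac-only): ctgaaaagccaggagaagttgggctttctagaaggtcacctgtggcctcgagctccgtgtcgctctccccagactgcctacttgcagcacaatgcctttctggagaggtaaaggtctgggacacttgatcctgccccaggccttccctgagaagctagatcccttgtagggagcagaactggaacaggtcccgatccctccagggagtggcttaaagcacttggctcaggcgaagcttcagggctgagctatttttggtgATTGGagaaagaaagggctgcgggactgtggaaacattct
Halr1 (chr6:52102699-52102998, plus strand, yolk-sac-only): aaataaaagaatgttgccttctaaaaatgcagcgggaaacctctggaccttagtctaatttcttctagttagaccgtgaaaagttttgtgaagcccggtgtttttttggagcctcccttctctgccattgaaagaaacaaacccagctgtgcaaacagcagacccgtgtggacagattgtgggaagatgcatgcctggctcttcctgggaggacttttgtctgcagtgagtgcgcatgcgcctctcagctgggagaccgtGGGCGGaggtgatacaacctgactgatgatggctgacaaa

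The sequence of F930017D23Rik held TGATAA at position -54 (leftmost base, with the start as position 1), that of Asb17os held it at -28, and that of Gm33619 held AGATAA in reverse at 9. Among all 32851 RefSeq promoters of the same length, AGATAA was found in 11.2% and TGATAA in 9.05%. Asb17os also held a reversed CCACACCC at -85, a motif found in 3.56% of promoters. These few sequences were picked by score rank and allow no comparison of motifs between tissues. The sequence of 9530059O14Rik stood apart in composition, with 75.7% G and C, 38 CpG dinucleotides and 7 matches to GGGCGG, which 35.7% of promoters hold at least once. The other 6 had between 2 and 8 CpG. The 4930527F14Rik sequence had a reversed TGACTCA at -214 (5.20% of promoters), and that of 9530020I12Rik a reversed CCAAT at 11 (37.4%). TATAAA, present in 13.6% of promoters, was in none of the 7.

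The first comparison asked how many lncRNA starts were initiation regions in each tissue. More were called in yolk sac. Peaks overlapped 1302 windows in liver replicate 1, 1295 in liver replicate 2, 2255 in yolk sac replicate 1 and 2007 in yolk sac replicate 2. The liver libraries lay close together, and both yolk sac libraries were well above them. Liver averaged 1298.5 ± 4.95 windows and yolk sac 2131 ± 175 (SD, n = 2), or 1.64 times as many (log2 ratio 0.71; exact two-sided permutation p = 0.33, the smallest that 2 libraries against 2 allow). The gap between tissues exceeded the spread between replicates. When the same number of highest-scoring peaks (24333) was taken from each list, the log2 ratio was 0.19, with the same p.

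Counted by gene, 772 and 778 of the 8592 lncRNA genes were called in liver replicates 1 and 2, against 1461 and 1275 in those of yolk sac. The shares averaged 9.02% ± 0.0494 in the former tissue and 15.9% ± 1.53 in the latter (SD, n = 2). Protein-coding starts, in windows of the same width but with no start left out for its neighbours, were called far more often. Coding genes also had more windows, 54361 for 21853 genes against 12198 for 8592 lncRNA genes. The part of both differences in the gap between lncRNA and coding shares was not tested. Of 21853 protein-coding genes, 55.4% and 57.3% had a peak in liver, against 62.9% and 61.6% in yolk sac. The lncRNA share minus the coding share was -46.4 and -48.2 percentage points in liver and -45.9 and -46.8 in yolk sac, with a mean of -46.8 over the 4 libraries. For every 100 coding genes called, the liver libraries called 6.38 and 6.22 lncRNA genes and the yolk sac libraries 10.6 and 9.47 (exact permutation p = 0.33), with no overlap between tissues. Measured against all peaks the order was the other way: 3.08% and 3.16% of liver peaks and 2.91% and 2.97% of yolk sac peaks lay at lncRNA windows (exact permutation p = 0.33), and total peaks were 1.90 times as many in yolk sac. The tissue difference in the gap of shares, 0.953 percentage points, was within the spread between replicates (exact permutation p = 0.667). Its direction depended on the processing, with -5.16 points in the higher-scoring 50% of each list, 3.68 with 24333 peaks per list and 2.01 with windows of 1000 bp.

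Processed transcripts were the type most often called among those with over 100 genes. A peak was found at 22.9% and 22.4% of their 568 genes in liver and at 33.6% and 32.6% in yolk sac. Antisense genes, transcribed from the strand opposite a coding gene, were called at 9.55% and 10.2% in liver and 19.2% and 16.3% in yolk sac. Among lincRNA genes, annotated as intergenic RNAs, the shares were 7.58% and 7.51% against 14.9% and 12.8%. Of the types with over 100 genes, sense intronic genes were called least, at 4.50% and 3.86% against 9.0% and 7.72%. In all these types both yolk sac libraries lay above both liver libraries. Neither macro lncRNA gene was called. The types differ in windows per gene. Processed transcripts had 1441 windows for 568 genes, antisense 2759 for 2137, lincRNA 7604 for 5529 and sense intronic 332 for 311. Genes with more windows were called more often. In liver, 6.69% and 6.67% of genes with 1 window were called, and 23.2% and 23.5% of those with 3 or more. In yolk sac the shares were 13.8% and 11.9% against 37.4% and 34.2%. The part of window number in the order of types was not tested.

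**Figure D1:**
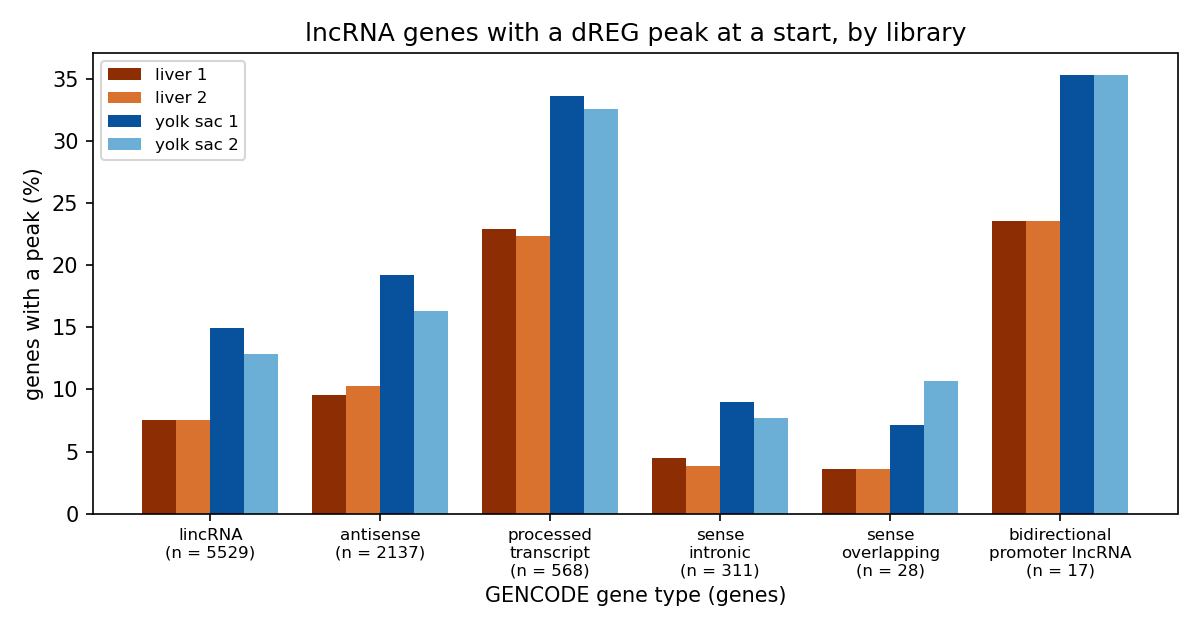
Share of lncRNA genes of each GENCODE type (x axis, number of genes in brackets) with a dREG peak at a kept start, in percent, for the 4 libraries (bars). Both yolk sac bars stand above both liver bars in every type drawn. The 2 macro lncRNA genes had no peak and are left out.

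Peaks were concentrated at the starts themselves. In liver, 8.04% and 8.01% of lncRNA starts lay under a peak, against 2.21% and 2.12% of positions 5 kb upstream and 1.72% and 1.49% of positions 5 kb downstream. In yolk sac the values were 14.3% and 12.8% at the start, 3.93% and 3.11% upstream, and 3.57% and 2.81% downstream. Coverage at the start was thus between 3.8 and 4.43 times the mean of these flanks. At protein-coding starts it was between 13.5 and 20 times the flanks. The midpoint of the peak lay a median of 46.5, 53.5, 52.5 and 57.5 bp downstream of the lncRNA start in liver 1, liver 2, yolk sac 1 and yolk sac 2, and between 75% and 77.5% of overlaps included the start base.

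**Figure D2:**
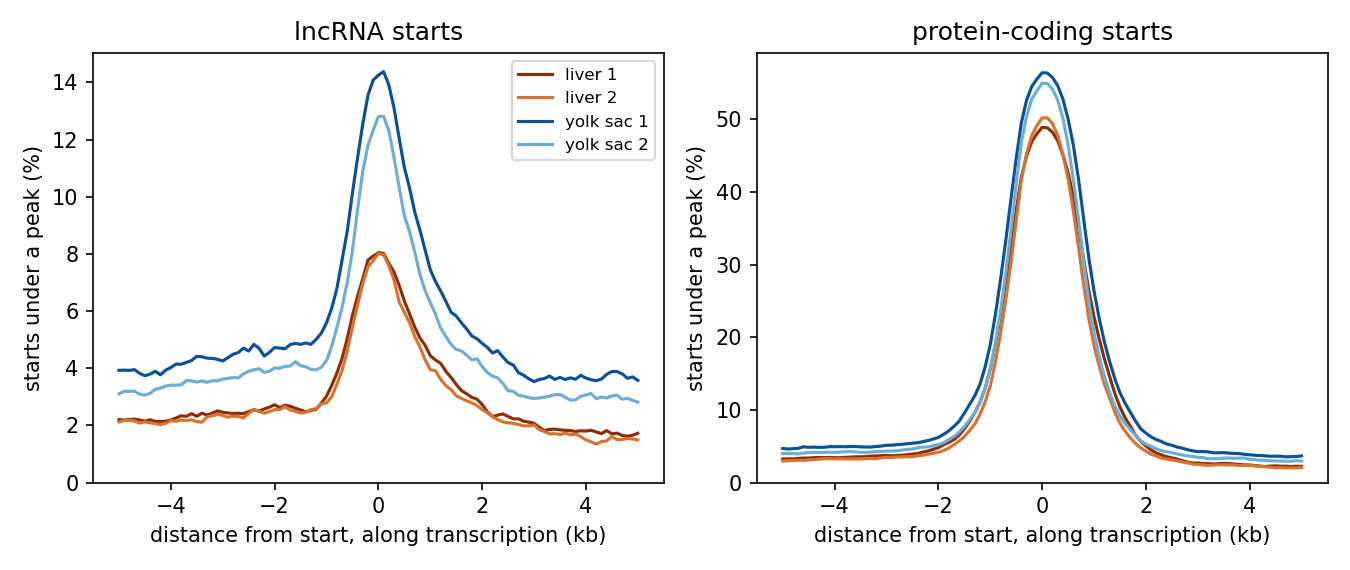
Share of starts lying under a peak (y axis, percent) at each distance from the start along the direction of transcription (x axis, kb), for the 4 libraries, at lncRNA starts (left) and protein-coding starts (right, on a different scale). All curves are highest within 100 bp of the start, and lncRNA curves reach 8.01% to 14.4% where coding curves reach 48.9% to 56.4%.

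Peaks at lncRNA windows were ranked by the authors' score within their own list. Their median percentile was 54.0 and 51.1 for liver and 62.5 and 60.5 for yolk sac, a difference of 9.01 between tissues (exact permutation p = 0.33). Peaks at coding starts had medians of 65.9 and 65.1 in liver and 69.7 and 70.1 in yolk sac, higher than the lncRNA windows of the same list in each of the 4 libraries. Ranks from lists of different length do not measure a change in signal, and with 24333 peaks per list the tissue difference was 2.70. Peak widths at lncRNA windows overlapped between tissues, with medians of 1152 and 1052 bp in liver and 1202 and 1102 bp in yolk sac (exact permutation p = 0.667). With 24333 peaks per list yolk sac peaks were wider by 350 bp, beyond the replicate spread (exact permutation p = 0.33). Coding peaks were wider in every library, at 1602, 1452, 1652 and 1502 bp in the same order. Of the peaks at lncRNA windows, 12.1% and 11.6% in liver and 9.74% and 10% in yolk sac also held a protein-coding start, beyond the 1 kb limit. This tissue difference of -1.98 percentage points reversed to 2.27 with 24333 peaks per list and to 0.368 with coding starts excluded to 2 kb. At such genes the peak can belong to either start.

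The choice of 1 kb falls on a slope. Starts more than 500 and up to 1000 bp from a coding start, just left out, were called in 58.6% and 62.6% of cases in liver and 73.6% and 71.0% in yolk sac. Starts up to 500 bp farther away, just kept, were called in 36.9% and 37.6% in liver and 50% and 48.7% in yolk sac. Over the kept genes the share fell further with distance. Among the 1065 genes with a start 1 to 5 kb from a coding start, 18.5% and 18.7% were called in liver and 28.6% and 26.9% in yolk sac. Of the 2687 genes whose starts all lay over 100 kb away, the shares were 2.53% and 2.83% in liver and 8.04% and 6.59% in yolk sac. Yolk sac exceeded liver in each distance class without overlap. Genes starting outside coding genes were called at 9.05% and 8.87% in liver and 16.7% and 14.7% in yolk sac, and those starting inside a coding gene on the opposite strand at 9.18% and 10.1% against 19.3% and 16.6%. The 433 genes starting inside a coding gene on its own strand were called at 7.16% and 6.70% in liver and 10.6% and 9.24% in yolk sac.

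**Figure D3:**
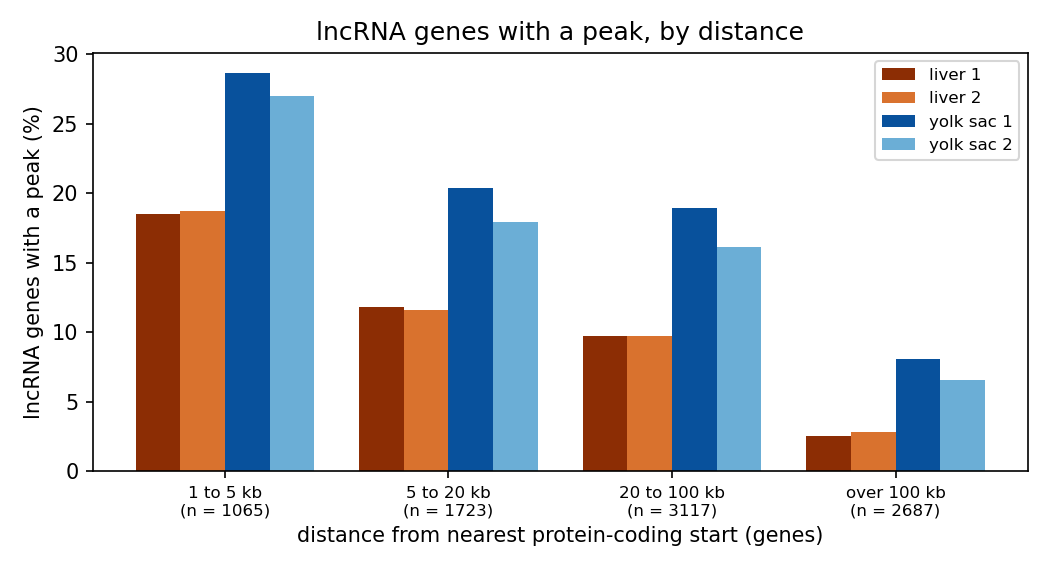
Share of lncRNA genes with a peak (y axis, percent) by the smallest distance of a kept start from a protein-coding start (x axis, number of genes in brackets), for the 4 libraries (bars). Shares fall from 18.5% to 28.6% at 1 to 5 kb to between 2.53% and 8.04% beyond 100 kb, and both yolk sac bars are higher in each class.

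The second comparison sorted the genes by the libraries that called them. Of the 8592 genes, 1661 were called in at least 1 library and 6931 (80.7%) in none. Chromosome Y holds 551 of the members, of which 0 were called in either liver library and 1 in each yolk sac library. These genes are kept in every share over all members. All 4 libraries called 550 genes, or 6.40% (95% Wilson interval 5.90 to 6.94), against 25.7% of all annotated genes and 53.2% of protein-coding genes. Both yolk sac libraries alone called 545, or 6.34% (5.85 to 6.88), against 3.83% of all annotated genes and 5.13% of coding genes. Both liver libraries alone called 97, or 1.13% (0.926 to 1.38), against 0.738% of all annotated genes and 1.02% of coding genes. Counted over all members, the liver-only share was near that of coding genes, which lies within its interval, and the yolk-sac-only share was somewhat above, with the coding share below its interval. The intervals cover counting error only, and genes that share a peak are not independent. For comparison, the 4 pairs made of a liver library and a yolk sac library had 11, 5, 8 and 1 genes that exactly those libraries called.

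Among genes called in at least 1 library, tissue-only patterns were more common at lncRNA genes than at coding genes, and near their share of all peaks. All 4 libraries called 33.1% of the 1661 lncRNA genes and 81.8% of the 14196 coding genes. Yolk-sac-only genes made up 32.8% of the lncRNA genes and 7.90% of the coding genes, and liver-only genes 5.84% and 1.57%. Over all called annotated genes, coding genes included, 74.8% had a peak in every library, 11.1% were yolk-sac-only and 2.15% liver-only. When the peaks of the 4 lists were merged into 61095 regions, 25.7% were in all 4 lists, 33.0% were yolk-sac-only and 6.62% liver-only, and among the 1691 regions at lncRNA windows the shares were 37.2%, 32.2% and 5.50%. Calls in a single library were also more common, at 14.3% for 1 yolk sac library and 3.13% for 1 liver library, against 2.63% and 0.747%. The libraries of a tissue shared fewer lncRNA calls: the Jaccard index, genes shared divided by genes called in either, was 0.765 for liver and 0.810 for yolk sac at lncRNA genes, and 0.938 and 0.963 at coding genes. Between tissues it lay between 0.401 and 0.440 at lncRNA genes and between 0.843 and 0.875 at coding genes.

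**Figure D4:**
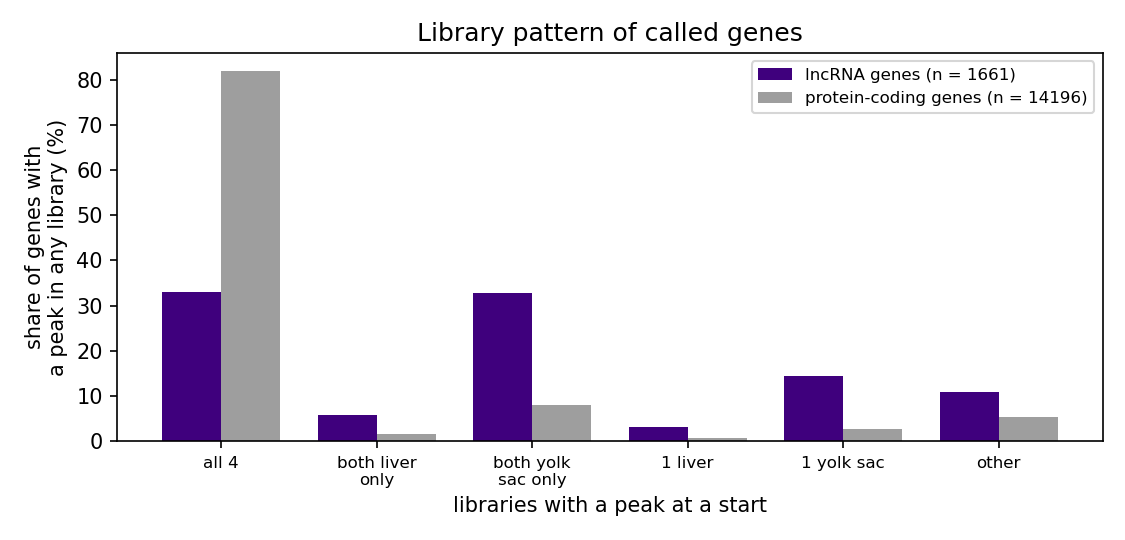
Libraries that called a gene (x axis) as a share of the genes called in any library (y axis, percent), for 1661 lncRNA genes and 14196 protein-coding genes (bars). Yolk-sac-only genes are 32.8% of the lncRNA genes and 7.90% of the coding genes, and genes called in all 4 libraries are 33.1% and 81.8%. Over all merged peak regions, not drawn, 33.0% were yolk-sac-only.

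List length bears on these counts. With every list limited to its 24333 highest-scoring peaks, 434 lncRNA genes had a peak in every library, 260 were yolk-sac-only and 164 liver-only. The coding genes then numbered 10060, 559 and 659 in the same order. As shares, these were 5.05%, 3.03% and 1.91% of all lncRNA members, and 46.0%, 2.56% and 3.02% of all coding genes. Yolk-sac-only genes remained the larger class among lncRNA genes, while among coding genes the order was reversed. All of the 260 were among the 545, and all of the 97 liver-only genes were among the 164. This nesting is nearly fixed in advance and is no measure of stability. The limit is the full length of the liver replicate 2 list, and liver replicate 1 held 24863 peaks. It therefore trims almost only the yolk sac lists, which held 50525 and 43055.

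The leading liver-only genes, ranked by the lower of the 2 liver score percentiles after genes whose every peak held a coding start were left out, were F930017D23Rik, Gm43904, Asb17os, Gm10603, 1810053B23Rik, Gm47950, Gm33619 and Gm43121. The lincRNA F930017D23Rik (chromosome 10, 43593397 to 43709668) had the peak 43592701 to 43595052 in liver replicate 1, with a score at the 99.9 percentile of both liver lists. Its nearest coding start is that of Cd24a, a surface glycoprotein gene, 13462 bp away and called in all 4 libraries. The lincRNA Gm43904 (chromosome 6, 87776143 to 87777480) ranked at 99.996 and 99.7, and lies 1929 bp from the start of Gp9, a platelet glycoprotein gene that no library called.

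Asb17os (chromosome 3, 153836902 to 153852424) is antisense to Asb17, which was called in none of the 4 libraries. Its peak, 153849251 to 153853302 in liver replicate 1, was 4052 bp wide and ranked at the 96.4 and 99.3 percentiles. Gm10603 (chromosome 7, 100446737 to 100474846), antisense, had a still wider peak of 5102 and 5252 bp at the 94.9 and 95.9 percentiles. Its nearest coding start, 5801 bp away, is that of the mitochondrial carrier gene Ucp3, called in no library. Within 1000 bp of its starts a yolk sac library also had a peak. Gm33619 (chromosome 10, 21182695 to 21188620) lies 25963 bp from the start of Myb, the gene of a transcription factor needed for blood formation in the fetal liver. Its peaks ranked at 94.2 and 96.1, while Myb itself was called in all 4 libraries. The processed transcript 1810053B23Rik (chromosome 16), with 13 start windows, ranked at 94.8 and 97.4, the antisense gene Gm47950 (chromosome 9) at 95.1 and 94.6, and the lincRNA Gm43121 (chromosome 3), 51490 bp from Tent5c, at 92.2 and 99.1. In liver replicate 2 the peak of Gm43121 ended at 100437452, short of the start at 100437834, and that call was lost with windows of 250 bp.

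The leading yolk-sac-only genes were Gm13412, Gm26551, 4930527F14Rik, Gm41144, Gm15816, 9530059O14Rik, Gm4544 and Gm15122. The lincRNA Gm13412 (chromosome 2, 32525031 to 32527990), 10302 bp from the start of Fam102a, had peaks at the 99.1 and 99.8 percentiles of the yolk sac lists. Gm26551 (chromosome 11, 51949882 to 52269514) ranked at 98.5 and 99.2. Its peak stopped at 52269202 in replicate 1, short of the start at 52269514, and the call did not hold with windows of 250 bp. On chromosome 14, 4930527F14Rik and Gm41144 have divergent starts 108 bp apart on opposite strands. That of 4930527F14Rik, at 45543675, is an internal start of the 45530358 to 45562933 gene. Both starts share 1 peak from 45542901 to 45544102 in replicate 1, at the 99.0 and 98.3 percentiles. They count as 2 genes and 1 region.

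Gm15816 (chromosome 8, 23138794 to 23149585) is antisense and lies 3684 bp from the start of Nkx6-3, a homeobox gene that no library called; its peaks ranked at 98.2 and 99.9. The lincRNA 9530059O14Rik (chromosome 9, 122572499 to 122679596), whose CpG-rich promoter is printed above, ranked at 98.4 and 97.0, and its nearest coding start, that of Topaz1, is 174847 bp away. Gm4544 (chromosome 15), 10632 bp from Atp5g2, ranked at 97.0 and 96.6. Gm15122 (chromosome 10), antisense and 9447 bp from Rps15, ranked at 97.6 and 96.5, and its call did not hold with windows of 250 bp. The yolk-sac-only gene 9530020I12Rik (chromosome 12, 11185993 to 11204502), printed above, ranked at 96.3 and 99.5.

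Genes called in all 4 libraries were led by 4632428C04Rik (chromosome 16, 30008667 to 30021430), a lincRNA 56673 bp from Hes1, the gene of a Notch-regulated repressor. Its peaks ranked at 98.0 and 99.8 in liver and 99.4 and 98.3 in yolk sac. Gm27252, 2310015A10Rik, 1700066J03Rik and Gm20670 followed, with lowest percentiles of 97.4, 96.5, 95.6 and 95.5. Few tissue-only members have a symbol of their own beyond a Gm, Rik or clone name, only 6 of the 97 liver-only and 27 of the 545 yolk-sac-only genes. Of these, Redrum and Foxl2os were picked after their values were seen. Redrum, named for its role in red cell maturation, was liver-only with scores at the 80.6 and 85.4 percentiles. Foxl2os, divergent from the forkhead gene Foxl2 and 1004 bp from its start, was yolk-sac-only together with that gene, and each of its peaks also held the Foxl2 start. The Foxl2os call changed under 5 of 11 alternatives.

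Imprinted lncRNAs, transcribed from a single parental chromosome, showed no tissue-only call. Of 12 listed, 8 had a peak in every library and the other 4 had no peak. Over all members, 6.40% had a peak in every library and 80.7% had none, while 6.34% were yolk-sac-only and 1.13% liver-only. These shares stand beside the counts of the later lists as well. Airn, whose transcription silences Igf2r on the paternal chromosome, had peaks at the 94.8 and 98.5 percentiles in liver and 97.1 and 94.1 in yolk sac. Kcnq1ot1, which silences genes in cis in the Kcnq1 domain, had 71.8 and 99.1 against 97.9 and 97.9. H19 had 36.6 and 27.6 against 62.9 and 45.6, and Meg3, a maternally expressed RNA of the Dlk1-Dio3 cluster, 44.3 and 40.4 against 70.0 and 53.2. With only the higher-scoring 50% of peaks, the Meg3 call was left in both yolk sac libraries and neither liver library. Dio3os, Peg13, Nespas and Igf2os completed the 8, and Rian, Mirg, Snhg14 and Nctc1 were called in no library. All Dio3os peaks also held the start of Dio3.

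Of the 4 lncRNAs of the X-inactivation centre, Xist, Jpx and Ftx were called in all 4 libraries. Xist, the RNA that coats and silences the inactive X chromosome, had peaks at the 81.8 and 87.2 percentiles in liver and 55.4 and 54.5 in yolk sac. Tsix, transcribed antisense across Xist, was liver-only. Its liver peaks, 103447301 to 103448652 and 103447451 to 103448102 on chromosome X, ranked at 86.6 and 74.2 and lay at an internal start of the 103431517 to 103484957 gene. This call held under each of the 12 alternatives run on it.

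Host genes of small nucleolar RNAs, which carry these RNAs in their introns and are transcribed in most growing cells, were nearly all called. Of 12 members, 11 had a peak in all 4 libraries and Snhg14 in none. Gas5 had percentiles of 69.2 and 80.8 in liver and 78.5 and 69.6 in yolk sac, from peaks that also held the start of Zbtb37. Snhg6 had 91.5 and 96.2 against 77.0 and 73.2, and Snhg12 had 99.8 and 86.7 against 87.7 and 68.1. Of 9 nuclear or widely expressed lncRNAs, 7 were called in all 4 libraries, among them Malat1 (77.0 and 72.9 against 81.8 and 56.8) and Neat1 (68.0 and 34.4 against 91.1 and 56.5), which builds the paraspeckle. The highest-scoring Neat1 peak of yolk sac replicate 1 (5827251 to 5828352) lay at another start than those of the other libraries, which fall between 5840701 and 5847652. Pvt1, beside the Myc gene, had 96.6 and 97.2 against 84.3 and 97.2. Miat was called in none, and 2900097C17Rik in 1 library of each tissue.

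MicroRNA hosts were mostly shared as well, with 9 of 15 called in all 4 libraries, 3 in none and no tissue-only gene. Mir17hg, host of a cluster that promotes proliferation, had percentiles of 65.4 and 60.0 in liver and 71.2 and 58.0 in yolk sac. Dnm3os, host of microRNAs of skeletal and mesenchymal tissue, had 34.0 and 36.2 against 91.3 and 92.4. Carmn, host of the smooth muscle microRNAs of the Mir143 and Mir145 cluster, had 39.8 and 41.0 against 84.5 and 82.6. At both genes the yolk sac ranks lay above the liver ranks without overlap, in lists of different length. The median ranks of all genes called in all 4 libraries, given above, were also higher in yolk sac. Mesenchymal markers had more coding promoter peaks in yolk sac, whose part was not tested.

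Among 9 blood-related lncRNAs, 6 were called in all 4 libraries, none in both libraries of 1 tissue only, and Hotairm1 in none. Bloodlinc (chromosome 11, 102375549 to 102377020), described in red cell precursors, was called in all 4, with peaks of 3252 and 3052 bp in liver and 2002 and 1802 bp in yolk sac. Their scores ranked at 59.4 and 79.0 in liver, against 86.3 and 68.1 in yolk sac. The nearest coding start, 11740 bp away, is that of Slc4a1, the red cell anion exchanger, which was liver-only. Ttc39aos1, an lncRNA of late red cell precursors also known as lincRNA-EPS, had a peak in liver replicate 1 only, and that peak also held the coding start of Ttc39a.

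Of 6 mesodermal lncRNAs, 4 were called in all 4 libraries and Hand2os1 was yolk-sac-only. Hand2os1 (chromosome 8, 57281117 to 57324233), divergent from the gene of the mesodermal transcription factor Hand2, has 10 start windows. Its highest-scoring peak was at 57314701 to 57316002 in replicate 1, at the 57.6 percentile, and at 57317551 to 57318852 in replicate 2, at 93.4. Fendrr, divergent from Foxf1, had 29.4 and 32.0 in liver against 67.5 and 80.7 in yolk sac, from peaks that also held the Foxf1 start. Bvht had a peak in liver replicate 2 only.

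Among 27 antisense or divergent lncRNAs of developmental genes, 20 were called in no library, as were 80.7% of all members. Those without a peak included Hotair, Hottip, Hotairm1 and Sox2ot. Yolk-sac-only were 3, Hand2os1, Hoxb3os and Halr1, and none was liver-only. Hoxb3os (chromosome 11, 96343072 to 96354691) had peaks 2802 and 2902 bp wide at the 61.4 and 62.8 percentiles. Halr1 (chromosome 6, 52102949 to 52113684), a lincRNA, had peaks of 552 and 552 bp at 34.6 and 23.0, and its call was lost in the higher-scoring 50% of each list and with 24333 peaks per list. Fendrr, Hnf1aos1 and Hnf4aos were called in all 4 libraries. The last of these lies beside Hnf4a, the gene of a transcription factor of hepatic and yolk sac endoderm, and had 54.6 and 58.6 in liver against 94.1 and 79.1 in yolk sac. The lists hold genes in common, and each is described by its counts only.

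**Figure D5:**
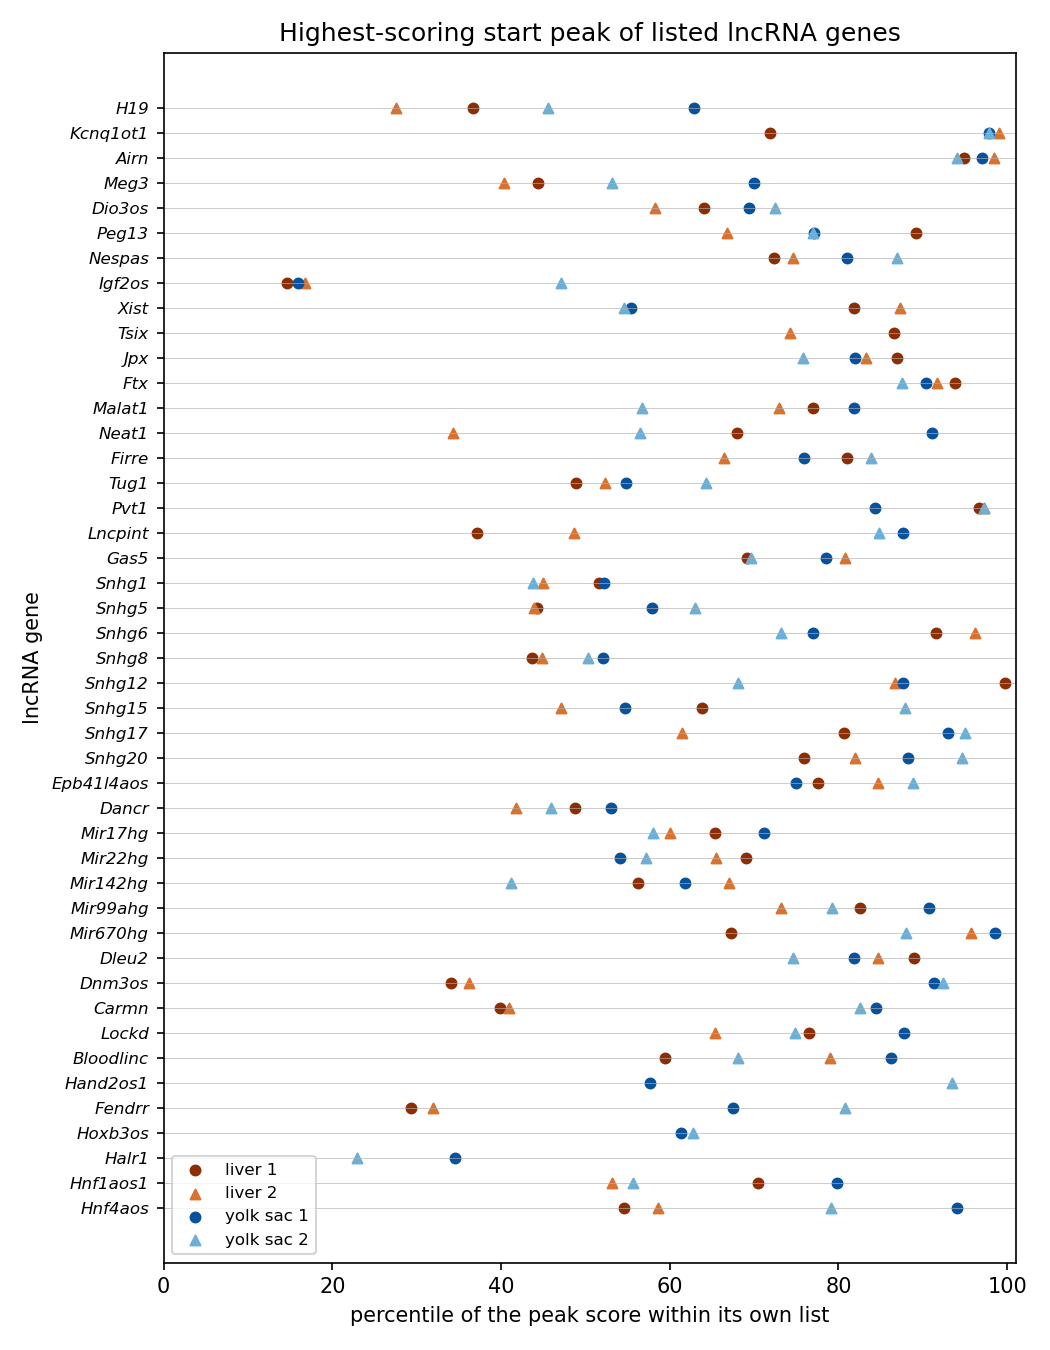
Percentile of the highest-scoring start peak within its own library's list (x axis) for listed lncRNA genes called in all 4 libraries or in both libraries of 1 tissue only (y axis), with points for the 4 libraries. Tsix has liver points only, and Hand2os1, Hoxb3os and Halr1 have yolk sac points only.

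The pattern of the nearest coding gene was set beside that of the lncRNA gene. Of the 97 liver-only lncRNA genes, 72 had a nearest coding gene called in all 4 libraries, 14 a gene called in none, 5 a yolk-sac-only gene and none a liver-only gene. Of the 545 yolk-sac-only genes, 355 (65.1%) had a neighbour called in all 4, 85 in none, 47 a yolk-sac-only neighbour (8.62%) and 5 a liver-only neighbour. Over all 8592 members the neighbour was called in all 4 libraries for 55.8%, was yolk-sac-only for 6.38% and was liver-only for 0.652%. The median distance to the nearest coding start was 28066 bp for liver-only genes, 35824 bp for yolk-sac-only genes, 19868 bp for genes called in all 4 libraries and 54413 bp for genes without a peak. A pair that matched in pattern was Gm13261, antisense to Sfmbt2, an imprinted gene of extraembryonic tissues; its start is 1591 bp from that of Sfmbt2, both genes were yolk-sac-only, and its peaks also held a coding start. The Gm13261 call changed under 4 of 11 alternatives. Among these, leaving out 1 library at a time could not change it.

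Composition at the 5′ end was measured in the first 100 bases of the annotated transcripts, which were available for 12190 of the 12198 starts. Starts called in all 4 libraries were richest in CpG dinucleotides, with a median of 4 per 100 bases (quartiles 2 and 7), against 2 (1 and 3) at liver-only starts, 2 (1 and 3) at yolk-sac-only starts and 1 (0 and 2) at starts without a peak. At least 5 CpG were present in 45.0% of the 954 measured starts called in all 4 libraries, in 9.40% of 149 liver-only starts, in 13.2% of 789 yolk-sac-only starts and in 5.91% of 9634 starts without a peak. The median share of G and C was 57%, 51%, 52% and 49% in the same order. Coding starts of genes called in all 4 libraries had a median of 7 CpG, and those of liver-only and yolk-sac-only coding genes 2 and 3. Promoter sequence from RefSeq covered only 22.4% of member genes, so that a comparison of motifs between the patterns is void.

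Start windows of a single gene could differ in tissue pattern. Of 253 genes with more than 1 window that were called in all 4 libraries, 18 (7.11%) also had a tissue-only start. In 16 of them a yolk-sac-only start stood beside a start shared by every library. H19 had 3 such shared starts and 4 yolk-sac-only starts, within 1605 bp. Lncpint, a p53-regulated lncRNA with 14 windows over 132884 bp, had 6 shared starts, 2 yolk-sac-only starts and 6 without a peak. For Dnm3os 4 starts were shared and 1 was yolk-sac-only, and for Neat1 3 and 1. Starts of some of the 18 genes lie close together, within 250 bp at Gm45889 and 599 bp at Gm48623, so their windows overlap. Whether such differences, also at H19, reflect separate starts or only where a peak ends was not tested.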

How the data were processed

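PRO-seq was made on 2 liver and 2 yolk sac libraries of E14.5 embryos. Bowtie2, bedtools and the build mm10 are named in the submitters' processing notes, without settings. The dREG version, filters and read depth are not given in the sources used here. Each deposited file lists the peaks of 1 library with a score without a unit, made by the authors per library; the lowest score was 0.80 in each list. The score was used here only to rank peaks within a list, as a percentile.

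GENCODE M21 (GRCm38, the assembly of mm10) gave starts and gene types. Positions are 1-based. The members and the gene lists were chosen with earlier results of these data known. Peaks were matched to windows in Python 3.11.15 (pandas 2.3.3, numpy 2.4.6, scipy 1.17.1). The tissue test was an exact two-sided permutation of the library labels, with 6 arrangements. Intervals are 95% Wilson intervals. Named are the 8 leading genes of each tissue-only pattern, the 5 leading genes called in all 4 libraries, every tissue-only gene of the lists and at least 2 genes of each list; others are said to be chosen after their values were seen. Redrum, Foxl2os and Gm13261 were so chosen. The pattern-calling code was run on simulated lists, where 200 of 200 planted starts were returned in their pattern. Planted peaks lay clearly inside or clearly outside the windows of single, widely spaced starts, so this outcome was fixed by the design. It checks the code only, and not calls at window edges, with very wide peaks or at genes with several starts. Alternatives were score filters, other windows, overlaps and exclusions, single libraries left out, and a block for the replicate number. Sequences came from RefSeq promoters (GRCm38.p6) and GENCODE transcripts.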

Additional observations from a re-analysis of the deposited data

How the results depend on the processing

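With 2 libraries against 2 no test could pass a threshold, so a value counts as changed when it moved by more than the replicate spread, or a count by more than 1.5 times. Depth is unknown and limits every count. Score filters changed most results. In the higher-scoring 50% of each list, 254 genes were called in all 4 libraries, the log2 ratio of windows was 0.95, the lncRNA minus coding share was -40.2 percentage points, its tissue difference was -5.16 points, the percentile difference was 1.67, the width difference was -75 bp, the share of peaks also holding a coding start differed by -2.41 points, and 41.0% of yolk-sac-only genes had a neighbour called in all 4. With 24333 peaks per list these values were 434 (not changed by the rule), 0.19, -45.4, 3.68, 2.70, 350 bp, 2.27 (reversed from -1.98) and 57.3%, with 164 liver-only and 260 yolk-sac-only genes. When 50% of the peak or its midpoint had to lie in the window, 327 genes were called in all 4, the lncRNA minus coding share was -43.9, the coding-start share differed by -0.165 points, and the neighbour share was 45.8%. With windows of 1000 bp the lncRNA minus coding share was -45.4, its tissue difference 2.01, and the coding-start difference -3.51. With coding starts excluded to 2 kb the lncRNA minus coding share was -47.9 and the coding-start difference reversed to 0.368, and with peaks holding a coding start left out the lncRNA minus coding share was -48.1. The cause of these changes was not tested. Leaving out 1 library at a time gave log2 ratios of windows from 0.63 (without yolk sac replicate 1) to 0.80, and neighbour shares from 65.3% to 71% (without liver replicate 1). It gave 99 to 126 liver-only, 588 to 740 yolk-sac-only and 552 to 624 genes in all 4. With a library left out each pattern asks for less, so these counts could not fall. Every gene of a pattern was bound to stay in it, which is no measure of stability. The replicate number as a block gave a log2 ratio of 0.71 (exact permutation p = 0.5, the smallest possible for 2 pairs) and changed no other call; same-numbered libraries did not deviate together (r = -0.0244 over 1602 windows that share these libraries), and they share only a number. The counts in 1 tissue only did not move by over 1.5 times under any alternative run other than 24333 peaks per list, but the genes changed: in the higher-scoring 50%, 48 of the 97 liver-only (49.5%) and 245 of the 545 yolk-sac-only genes (45.0%) kept their pattern, and with 50% of the peak or its midpoint in the window 60.8% and 69.9% did. Of 72 named or listed genes, 17 changed their call in the higher-scoring 50% and 25 under the overlap rule, and none changed direction. The median CpG difference between starts called in all 4 and tissue-only starts was 2 or 3 under every alternative run on it.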

Other observations

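Some yolk-sac-only lncRNA genes had the same yolk-sac-only coding neighbour; these groups were picked after their values were seen, and no test was made. Gm35835, AC160966.1, Gm35940 and Gm48814 (chromosome 9) all had Sorl1, the gene of an endocytic sorting receptor, as nearest coding gene, with starts 386899, 248029, 318885 and 247978 bp from it. AC160966.1 and Gm48814 share 1 peak. Gm40513, with the same neighbour, was called in all 4 libraries. Gm47730, Gm29459 and Gm47734 (chromosome 13) had Ly86, at 95246, 105949 and 162544 bp. Gm4035 and Gm29458, also nearest to Ly86, were called in all 4. Gm29458 and Gm29459 share their yolk sac peaks, which overlap liver peaks at the Gm29458 window, so the yolk-sac-only call of Gm29459 rests on where its window ends.

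Opposite patterns were also found. Frmpd1os, antisense to Frmpd1 and 40065 bp from its start, was liver-only at the 84.9 and 88.8 percentiles, while Frmpd1 was yolk-sac-only. Arhgap15os was yolk-sac-only within the liver-only gene Arhgap15, 316454 bp from its start. Of the 550 genes called in all 4 libraries, 10 (1.82%) had a liver-only coding neighbour and 17 (3.09%) a yolk-sac-only neighbour. Over all members the shares were 0.652% and 6.38%. Among the 10 were Ptprv, 1537 bp from Ptpn7, Tspan32os, 2105 bp from Tspan32, and Gm36738, 8833 bp from Rac2. The liver peaks of Ptprv and Tspan32os also held a coding start, and their yolk sac peaks did not.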
